A study of Mus musculus with 4 samples.

Results

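The thrombospondins are secreted glycoproteins of the extracellular matrix, and CD47 is the cell-surface protein that several of them bind. The genes described here were the 6 rows of the count table named Thbs1, Thbs2, Thbs3, Thbs4, Comp and Cd47, out of 25413 rows in all. They were selected on measured values, the counts of PM2.5 against Control libraries as reported earlier from these data, so the values that separate the groups are given for these 6 genes as a description, with no p-value, and the 1 count of how many passed the threshold is printed for reference and supports nothing. Of the 6, Thbs1, Thbs2, Thbs3 and Cd47 passed the filter on low counts that left 12478 genes, and Thbs4 and Comp did not.

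The RNA came from EpH4 cells, an immortalised line from mouse mammary epithelium, of wild-type genotype and grown in 2D. The PM2.5 group was 2 libraries of cells exposed to PM2.5, fine particles of polluted air, and the Control group was 2 libraries of untreated cells. The dose of the particles and the length of exposure are not stated in the labels. The 4 libraries carry 1 batch value, and no label says whether replicates came from separate cultures, so every p-value measures the spread between these samples and that spread may be technical.

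Thrombospondins are multimers that share repeats of the epidermal growth factor type, calcium-binding type 3 repeats and a globular C-terminal region. Thrombospondin-1 and thrombospondin-2, the products of Thbs1 and Thbs2, form trimers and also carry type 1 repeats, which bind the scavenger receptor CD36 and inhibit blood vessel growth, and in thrombospondin-1 hold the sequence that activates latent TGF-beta. Thrombospondin-3, thrombospondin-4 and cartilage oligomeric matrix protein, the products of Thbs3, Thbs4 and Comp, form pentamers without type 1 repeats. CD47 is a widely expressed membrane protein that receives the C-terminal region of thrombospondin-1 and, on the other side of a cell contact, engages SIRP-alpha on phagocytes to restrain engulfment.

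Promoter windows from 250 bases before to 50 bases after the gene start were found in the RefSeq table for 4 of the 6 genes, Thbs2, Thbs3, Thbs4 and Cd47. The windows of the 3 that were also tested are printed here because the levels of these genes were higher, lower and about equal in PM2.5 cells. They lie at chr3:89214930-89215229 on the plus strand, chr17:14694213-14694512 on the minus strand and chr16:49855404-49855703 on the plus strand, in the same order, on the GRCm38.p6 build of that table, which is not the build of the count files. Capitals mark GCGTG, the core of the element that the aryl hydrocarbon receptor binds, and TATAAA, the TATA box, each on either strand.
Thbs3: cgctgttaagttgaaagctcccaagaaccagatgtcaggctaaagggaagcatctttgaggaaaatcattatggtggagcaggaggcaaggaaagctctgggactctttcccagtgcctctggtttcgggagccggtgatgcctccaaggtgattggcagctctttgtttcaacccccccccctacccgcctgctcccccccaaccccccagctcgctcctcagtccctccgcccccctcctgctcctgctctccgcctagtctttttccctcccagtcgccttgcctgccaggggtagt
Thbs2: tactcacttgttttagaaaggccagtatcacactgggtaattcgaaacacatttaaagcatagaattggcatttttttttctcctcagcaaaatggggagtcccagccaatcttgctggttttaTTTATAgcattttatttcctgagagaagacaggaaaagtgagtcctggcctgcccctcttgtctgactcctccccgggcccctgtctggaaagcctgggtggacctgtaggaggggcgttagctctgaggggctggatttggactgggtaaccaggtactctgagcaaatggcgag
Cd47: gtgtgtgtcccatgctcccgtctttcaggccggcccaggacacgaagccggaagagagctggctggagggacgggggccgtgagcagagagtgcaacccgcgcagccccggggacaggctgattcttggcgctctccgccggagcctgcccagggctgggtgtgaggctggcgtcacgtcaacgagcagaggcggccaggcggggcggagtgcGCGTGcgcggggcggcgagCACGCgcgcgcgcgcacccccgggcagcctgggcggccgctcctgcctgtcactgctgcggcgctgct
The Thbs3 window held 59.0% G and C and no match to GCGTG or TATAAA. The Thbs2 window held 48.3% G and C and 1 match to TATAAA, whose first base lies 126 bases before the start. This match is printed as TTTATA, so it reads TATAAA on the strand opposite to the printed one. The Cd47 window was the richest of the 3, at 74.0% G and C, and held 2 matches to GCGTG. Of 32851 windows of this length, 32.4% held GCGTG and 13.6% held TATAAA. The GC box GGGCGG, found in 35.7% of windows, had 1 match for Thbs3, 3 for Thbs4, 3 for Cd47 and 0 for Thbs2. The AP-1 site TGANTCA and the E-box CACGTG, found in 7.81% and 7.15% of windows, had 0 matches in the windows of the 4 genes. The Thbs4 window held 1 match to GCGTG. In the 3 printed windows no match of one motif overlapped a match of another. A match is a run of letters and not a binding site.

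Total counts were 20232277 and 18548478 in the PM2.5 libraries and 19562930 and 26206329 in the Control libraries, and a count of 3 was worth 0.116 to 0.158 CPM, the unit for TMM-scaled counts. Of 12 epithelial markers, 11 had a mean under 1 CPM over the 4 libraries and 6 of these (Krt5, Krt18, Krt19, Epcam, Esrp1 and Cldn4) were at 0 counts throughout, which does not match the epithelial label. The summed epithelial markers were 21.9 and 20.8 CPM in PM2.5 cells and 53.4 and 51.5 CPM in Control cells, nearly all from Krt14, a gene named after its values were seen. Grhl2 and Krt8, likewise named, went the other way on few counts, with Grhl2 at 12 and 19 counts in PM2.5 cells and 2 and 6 in Control cells (log2 fold change 2.10, SE 0.590, edgeR adjusted p = 0.0168) and Krt8, not tested, at 9 and 20 counts in PM2.5 cells and 1 and 3 in Control cells. The Grhl2 call ended without PM2.5 replicate 2 (1.67), without Control replicate 1 (1.72), with DESeq2 (2.19) and on RPKM. Stromal markers, led by Vim and Col1a2, summed to 3938 and 4105 CPM in PM2.5 cells and to 5083 and 4900 CPM in Control cells, while of the 8 tested markers in that list 3 were called higher and 4 lower, with a median log2 fold change of -0.06. Macrophage markers summed to 15.7 and 17.7 CPM in PM2.5 cells and to 8.99 and 10 CPM in Control cells, with Ptprc, Adgre1 and Csf1r each at under 1 CPM. The sum came mostly from Cd68 and Lyz2, named after their values were seen. Cd68 had 9.01 and 10.3 CPM in PM2.5 cells and 3.63 and 4.22 CPM in Control cells and was called higher (log2 fold change 1.28). Lyz2 had 6.3 and 6.64 CPM in PM2.5 cells and 5.05 and 5.19 CPM in Control cells and was not called (0.33). The endothelial and platelet lists stayed under 2 CPM in every library, and the cartilage and tendon list, mostly Sox9, summed to 106 and 108 CPM in PM2.5 cells and 96.9 and 114 CPM in Control cells. The part of these markers in the results below was not tested.

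Thbs1 made up nearly all thrombospondin transcript of these cells and was about 2-fold more abundant after PM2.5 (1.98-fold). Thbs3 stood 1.35-fold higher, Thbs2 stood 1.63-fold lower, and Cd47 was level at 0.979-fold. By the edgeR quasi-likelihood test over all genes, with a Benjamini-Hochberg adjusted p under 0.05 as the threshold, 3 of the 4 tested genes were called, 2 of them higher and 1 lower. Over all 12478 genes tested the same test called 39.6%, with 19.2% higher and 20.4% lower, and nothing is read from the count among genes that were chosen with this contrast in view. In the same 3 genes the PM2.5 and the Control libraries did not overlap, which held for 71.0% of all genes tested, 35.9% with PM2.5 higher and 35.1% with PM2.5 lower. In a bulk sample, a smaller share of cells that express a gene and less of its RNA in each cell cannot be told apart.

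**Figure D1:**
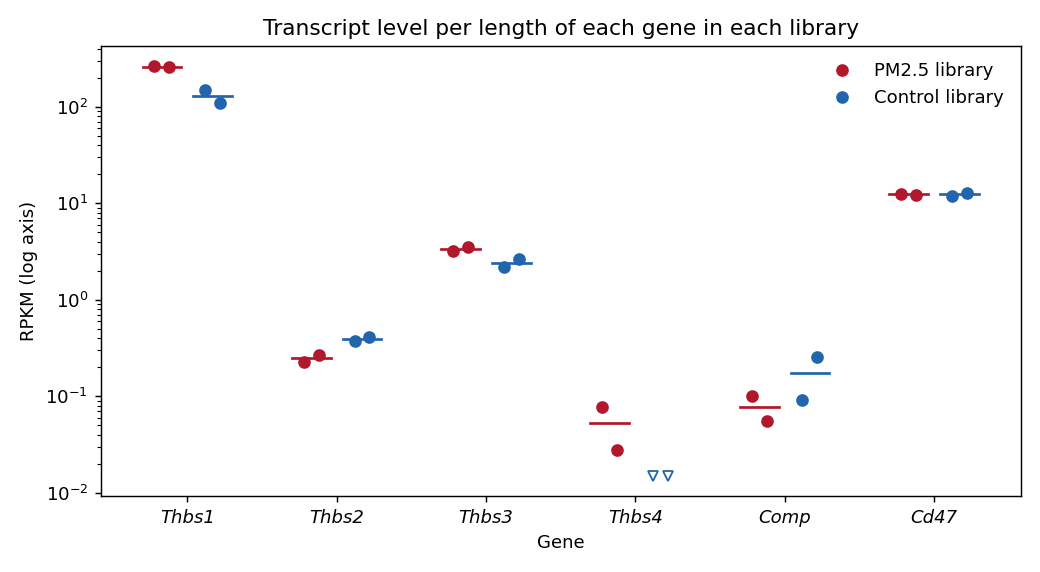
Level per length (RPKM, log axis) of the 6 genes in each library, PM2.5 in red at the left and Control in blue at the right of each pair. Points are libraries, bars are means of 2, and open triangles mark the Control libraries with 0 counts of Thbs4. Thbs1 lies above 100 RPKM in every library, Cd47 near 12 RPKM, and Thbs2, Thbs4 and Comp below 1 RPKM.

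Levels between genes were compared as RPKM, read counts scaled to gene length and library size, as the authors deposited them. In every library the order was Thbs1, Cd47, Thbs3, Thbs2, Comp and Thbs4. Only the last neighbours in this order had overlapping levels within a group, Comp and Thbs4 in PM2.5 cells. Thbs1 supplied 98.6% and 98.5% of the summed RPKM of the 5 thrombospondins in PM2.5 cells, against 98.2% and 97.0% in Control cells. Among all genes with counts, Thbs1 ranked 151 of 16167 and 153 of 16136 by RPKM in the PM2.5 libraries, against 283 of 15577 and 379 of 16083 in the Control libraries. Cd47 ranked between 4420 and 4709 and Thbs3 between 8785 and 9442 in the 4 libraries.

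Thbs1 (ENSMUSG00000040152, chr2:117942357-117957614, plus strand, GRCm39) had raw counts of 37542 and 33589 in PM2.5 cells and 19906 and 19765 in Control cells. At 262 and 256 RPKM, both PM2.5 libraries lay above the Control libraries at 149 and 109 RPKM. The means were 259 ± 4.31 RPKM in PM2.5 cells and 129 ± 28 RPKM in Control cells (SD, n = 2 each), and the log2 fold change was 0.99 with a standard error (SE) of 0.113. This gene alone held 0.186% and 0.181% of all counts in the PM2.5 libraries, against 0.102% and 0.0754% in the Control libraries.

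The spread of Thbs1 lay in the untreated cells. Its Control libraries differed by 0.45 on the log2 CPM scale, with replicate 1 higher, while its PM2.5 libraries differed by 0.04. Among 2474 genes with a mean of at least 100 CPM, 16 had a larger difference between the Control libraries, and the median was 0.071. Without Control replicate 1 the log2 fold change was 1.22, and without Control replicate 2 it was 0.77. Over the 13 alternative settings the value ran from 0.77 to 1.22. The ratio of Thbs1 to Cd47, ligand to receptor, was 20.9 and 21.0 by RPKM in PM2.5 cells, against 12.4 and 8.43 in Control cells.

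Thbs2 (ENSMUSG00000023885, chr17:14885762-14914497, minus strand, GRCm39), the closest relative of Thbs1 and likewise an inhibitor of vessel growth, was close to the lower end of detection. Its raw counts were 33 and 35 in PM2.5 cells and 51 and 75 in Control cells. The levels were 0.229 and 0.265 RPKM in PM2.5 cells, below the 0.378 and 0.411 RPKM of Control cells. The log2 fold change was -0.71 with an SE of 0.241, opposite in sign to that of Thbs1. These are few counts, and the value was -0.61 without PM2.5 replicate 1, -0.81 without PM2.5 replicate 2, -0.76 without Control replicate 1 and -0.65 without Control replicate 2. Over the 13 alternatives it ranged from -0.81 to -0.16, the smallest sizes on log2(RPKM + 0.1) at -0.51 and log2(RPKM + 1) at -0.16, where the added constant is large against these levels.

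Thbs3 (ENSMUSG00000028047, chr3:89122487-89134144, plus strand, GRCm39) encodes a pentameric member studied mainly in skeletal and heart tissue. Raw counts were 251 and 252 in PM2.5 cells and 161 and 263 in Control cells, the last from the deepest library. Per length this was 3.22 and 3.52 RPKM in PM2.5 cells, above the 2.20 and 2.66 RPKM in Control cells. The log2 fold change was 0.43 with an SE of 0.132. The value was 0.31 without Control replicate 1, 0.58 without Control replicate 2 and 0.35 when the gene was set against its neighbours on the chromosome, and over the 13 alternatives it ran from 0.31 to 0.58. The whole gene, 11658 bases, lies inside the annotated span of Mtx1 on the opposite strand, a gene for a protein of mitochondrial import. Mtx1 had 913 and 778 counts in PM2.5 cells and 879 and 1151 in Control cells and was not called (log2 fold change -0.09, SE 0.073). Whether counting used strand is not stated in the labels, so reads of the 2 genes may not be separated and the Thbs3 values are uncertain.

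Thbs4 (ENSMUSG00000021702, chr13:92888098-92931326, minus strand, GRCm39), whose protein is best known from muscle, tendon and heart, had 6 and 2 raw counts in PM2.5 cells and 0 and 0 in Control cells. With a floor of 3 counts put in place of 0 over the Control group, its pooled level in PM2.5 cells was 3.02-fold that floor. This is a ratio to an assumed count and not a minimum. The 95% counting interval of the ratio of 8 to 0 counts began at 1.93 and covers counting error only. The second deposited count, total gene reads, gave 13 and 5 in PM2.5 cells and 1 and 0 in Control cells, so most of its few reads lay outside the raw count. Comp (ENSMUSG00000031849, chr8:70826208-70834716, plus strand, GRCm39), a cartilage and tendon protein, had 6 and 3 raw counts in PM2.5 cells and 5 and 19 in Control cells. The pooled 9 and 24 counts gave a PM2.5 to Control ratio of 0.424, with a 95% interval of 0.174 to 0.945 that covers counting error only. The groups overlapped, and Control replicate 2 held most of the reads: the log2 ratio was -1.24 with it and -0.21 without it.

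Cd47 (ENSMUSG00000055447, chr16:49620896-49735373, plus strand, GRCm39) was the only receptor among the 6. Raw counts were 1917 and 1707 in PM2.5 cells and 1708 and 2499 in Control cells. The levels were 12.6 and 12.2 RPKM in PM2.5 cells and 12.0 and 12.9 RPKM in Control cells, so the Control libraries enclosed those of PM2.5. The log2 fold change was -0.03 with an SE of 0.063, and scaling by library size alone turned it to 0.03.

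**Figure D2:**
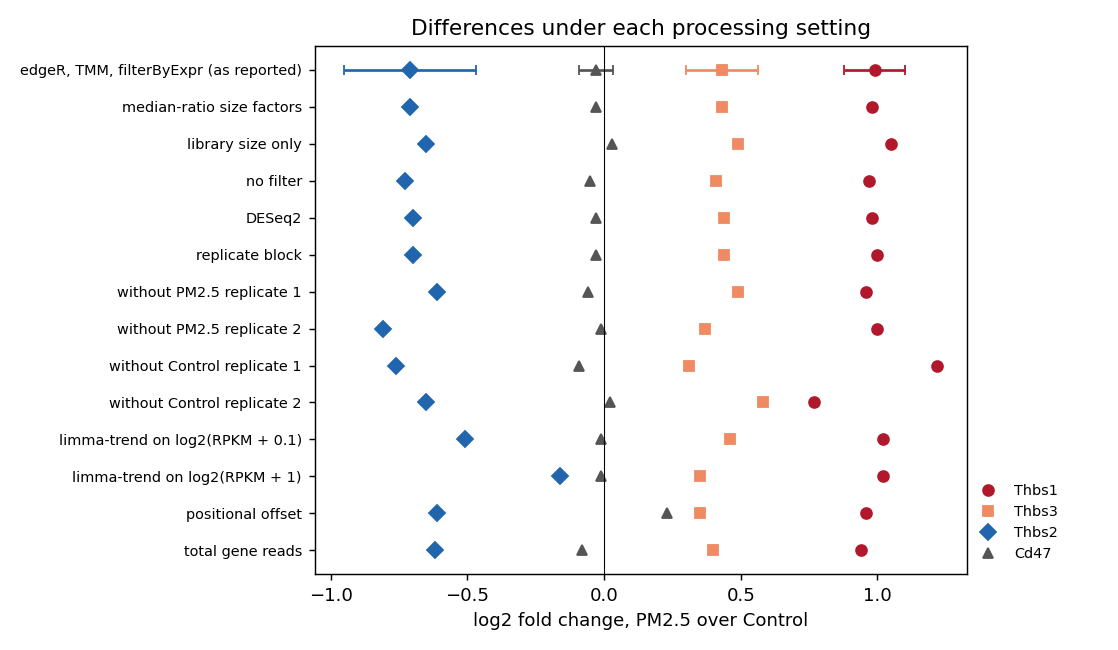
Log2 fold change, PM2.5 over Control, of the 4 tested genes under the reported setting, with bars of 1 SE, and 13 alternatives. Thbs1 lies between 0.77 and 1.22 in every setting, Thbs3 between 0.31 and 0.58 and Thbs2 between -0.81 and -0.16, and Cd47 lies between -0.09 and 0.03 except at 0.23 when set against its chromosome neighbours.

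Many genes around Cd47 were lower in PM2.5 cells. Its neighbours were the nearest 50 tested genes on each side on chromosome 16, 100 in all, from -13.9 to 37.5 Mb away. Among these, 51 were called lower and 5 higher, the median log2 fold change was -0.26, and 77 lay below Cd47. The 372 tested genes of chromosome 16 had a median of -0.27. Such neighbour medians ran from -0.29 at the 5th percentile to 0.19 at the 95th percentile over all genes tested. When Cd47 was set against its neighbours, its log2 fold change was 0.23, which is given as a description. Ift57, which encodes a subunit of the transport machinery of cilia, is the nearest tested gene at lower coordinates and fell by 0.45 on the log2 scale (SE 0.083, edgeR adjusted p = 0.00173). Bbx, the nearest at higher coordinates, encodes a protein with a DNA-binding HMG box and fell by 0.33 (SE 0.067, edgeR adjusted p = 0.00333). Against the neighbours the calls of Ift57 and Bbx ended, at -0.21 and -0.07.

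Around the other genes the neighbour medians were nearer to 0. They were 0.03 for the 100 neighbours of Thbs1, -0.10 for the 93 of Thbs2, 0.08 for the 100 of Thbs3, 0.14 for the 100 of Thbs4 and 0.02 for the 100 of Comp. Called higher and lower were 19 and 16 neighbours of Thbs1, 9 and 19 of Thbs2, 27 and 12 of Thbs3, 25 and 6 of Thbs4, and 14 and 9 of Comp. Thbs1 lay above 94 of its neighbours, Thbs3 above 85, and Thbs2 above 3. Fam98b and Gpr176 beside Thbs1, Dact2 and 1600012H06Rik beside Thbs2, Mtx1 and Muc1 beside Thbs3, and Upf1 and Crtc1 beside Comp were not called, with log2 fold changes from -0.14 to 0.30. Beside Thbs4, Serinc5, a membrane protein that restricts retroviruses, was higher by 0.63 (SE 0.140, edgeR adjusted p = 0.00519), and Mtx3 was not called (0.21). The Serinc5 call ended at 0.49 when PM2.5 replicate 1 was left out. Upf1 passed the threshold without Control replicate 2, at -0.18.

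**Figure D3:**
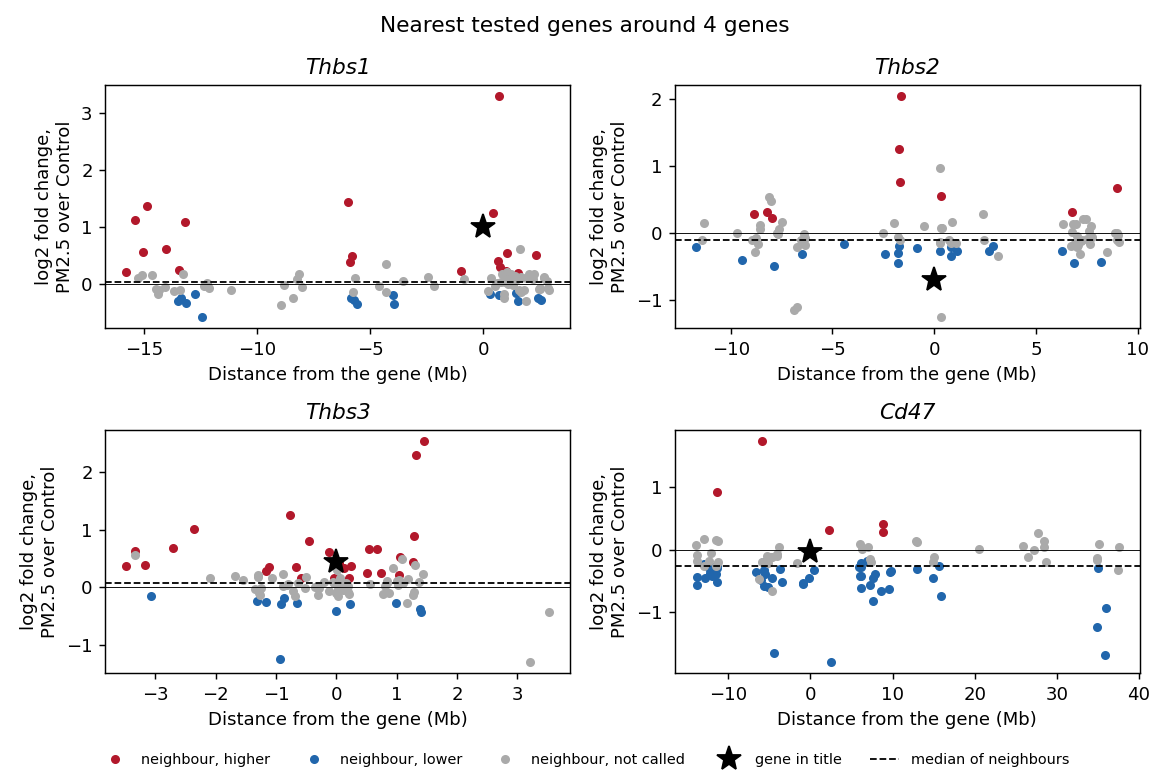
Log2 fold change, PM2.5 over Control, of the nearest tested genes around Thbs1, Thbs2, Thbs3 and Cd47 against distance in Mb, with the named gene as a star and the median of its neighbours as a dashed line. Cd47 lies at -0.03 over a neighbour median of -0.26, and Thbs1 at 0.99 over a median of 0.03.

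The deposited tables give, beside the raw count, the total gene reads, which are never below it and which the headers do not define. For Thbs1 the reads beyond the raw count were 1.11% and 1.08% of the total in PM2.5 cells and 1.10% and 1.09% in Control cells. Cd47 had 11.9% and 10.3% in PM2.5 cells and 12.1% and 10.8% in Control cells, and Thbs3 had 7.72% and 5.62% in PM2.5 cells and 5.29% and 6.07% in Control cells. Over all genes the share was 11.7% and 11.6% in PM2.5 cells, against 9.81% and 10.5% in Control cells. Thbs1 had the lowest share of these in every library, and it was alike in the groups.

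Patterns over the 4 libraries were compared for 9308 tested genes with a mean of at least 10 CPM. Predicted, clone, accession-like and mitochondrial names were then left out, so a closer gene may go unnamed. Among the rest, the genes most like each member had the smallest root mean square difference of centred log2 CPM. For Thbs1 these were Inhba, which encodes the activin beta-A subunit, at 0.039, Pdk4, a kinase that inhibits pyruvate dehydrogenase, at 0.077, and Mmd, a membrane protein linked to macrophage differentiation, at 0.084. Inhba had 22.8 and 21.8 CPM in PM2.5 cells and 13.5 and 9.19 CPM in Control cells, with the same lower second Control library as Thbs1. For Thbs3 they were Zfp950 at 0.013, Snapin, which acts in vesicle docking, at 0.017, and Cpeb2, a regulator of mRNA translation, at 0.020. For Cd47 they were Eif1b, of the translation initiation factor family, at 0.008, Mcfd2, a cargo receptor subunit of the secretory pathway, at 0.009, and Vps26a, of the retromer sorting complex, at 0.010. The measure describes 4 libraries and carries no test.

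The receptors, partners and regulators of the family were followed in 7 lists drawn from textbook roles, each gene tested in the same edgeR fit over all genes. Counts of each list are set beside the 19.2% higher and 20.4% lower among all genes tested, and list medians beside the median log2 fold change of 0.01 over all genes tested. Over all genes, TMM scaling gave 2399 higher and 2540 lower, and scaling by library size alone gave 3087 higher and 1891 lower.

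Receptors of thrombospondins other than CD47 were a mixed group. Of 14 genes, 10 were tested, 3 were higher, 1 was lower, and the median log2 fold change was 0.00. CD36, the receptor of the type 1 repeats, was all but missing, with Cd36 counts of 0 and 1 in PM2.5 cells and 0 and 0 in Control cells. Sdc4, a cell-surface heparan sulfate proteoglycan, had 262 and 278 CPM in PM2.5 cells and 167 and 194 CPM in Control cells and rose by 0.58 on the log2 scale (SE 0.072, edgeR adjusted p = 0.000153). Itga6, an integrin alpha subunit, rose equally by 0.58 (SE 0.102, edgeR adjusted p = 0.00133), at 28.2 and 24.3 CPM in PM2.5 cells against 18.1 and 17.2 CPM in Control cells. Itgb1, the beta subunit shared by many integrins, had 733 and 715 CPM in PM2.5 cells and 918 and 910.2 CPM in Control cells and fell by 0.34 (SE 0.055, edgeR adjusted p = 0.000841), though its call ended at -0.05 against its chromosome neighbours. Itgb3, named after its values were seen, was higher (1.17, SE 0.417, edgeR adjusted p = 0.0452). It had 24 and 24 counts in PM2.5 cells against 6 and 18 in Control cells. Its call ended with DESeq2 (1.23), no filter (1.15) and both fits on RPKM (0.70 and 0.13). The Itgb3 call ended without either PM2.5 replicate (1.23 without replicate 1, 1.11 without replicate 2) and without Control replicate 1 (0.79). The count of lower receptors was 2 without Control replicate 1, 3 without Control replicate 2 and 0 against chromosome neighbours, and total gene reads gave 5 higher. Itgav, Lrp1, Calr, Sdc1, Itga3 and Hspg2 were not called.

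Partners and downstream genes of CD47 gave 3 higher and 3 lower among 11 tested of 17, with a median of 0.06. Sirpa, the counter-receptor of CD47, had 14.2 and 13.2 CPM in PM2.5 cells, below the 22.5 and 24.8 CPM of Control cells, and fell by 0.79 (SE 0.103, edgeR adjusted p = 0.000205). Ptpn6, the phosphatase SHP-1 that docks on SIRP-alpha, rose by 1.40 (SE 0.199, edgeR adjusted p = 0.000366), with 5.91 and 7.06 CPM in PM2.5 cells and 2.15 and 2.67 CPM in Control cells. Nos2, the inducible nitric oxide synthase, had 61.6 and 57.4 CPM in PM2.5 cells against 21.0 and 33.6 CPM in Control cells and rose by 1.10 (SE 0.155, edgeR adjusted p = 0.000341). B2m, the light chain of MHC class I and a second restraint on phagocytes, rose by 0.59 (SE 0.070, edgeR adjusted p = 0.000116), with 1113 and 1191 CPM in PM2.5 cells and 721 and 813 CPM in Control cells. Ptpn11 (-0.24) and Cd24a (-0.32), named after their values were seen, were the other genes lower. The call of Ptpn11 ended without PM2.5 replicate 1 at -0.23 and that of Cd24a without PM2.5 replicate 2 at -0.23. Against chromosome neighbours, 5 genes were lower. Qpctl, the enzyme that modifies the CD47 end bound by SIRP-alpha, was not called (0.09), and the soluble guanylate cyclase subunits Gucy1a1 and Gucy1b1 had 0 counts in every library.

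Latent TGF-beta and its response had 7 higher and 5 lower of 18 tested, with a median of 0.02. Tgfb1, the growth factor that thrombospondin-1 can release from its latent form, had 81.3 and 88.1 CPM in PM2.5 cells, against 45.8 and 48.6 CPM in Control cells, and rose by 0.84 (SE 0.070, edgeR adjusted p = 1.29e-05). Skil, a SMAD repressor that TGF-beta induces, rose by 0.73 (SE 0.063, edgeR adjusted p = 1.60e-05), and Ltbp2, a matrix protein of the latent TGF-beta binding family, rose by 0.74 (SE 0.090, edgeR adjusted p = 0.000139). Lrrc32, which tethers latent TGF-beta to the cell surface, had 10.3 and 10 CPM in PM2.5 cells and 21.4 and 22.2 CPM in Control cells and fell by 1.11 (SE 0.104, edgeR adjusted p = 2.55e-05). Ltbp1 (-0.53), Smad4 (-0.26) and Ltbp4 (-0.20), named after their values were seen, were also lower. Likewise named, Ccn2 (1.05), Ltbp3 (0.42), Tgfb3 (0.35) and Smad3 (0.29) were also higher. Ccn2 was at 0.74 without PM2.5 replicate 1 and at 0.56 without Control replicate 2. Calls ended for Smad4 without PM2.5 replicate 1 (-0.22) and for Ltbp4 without PM2.5 replicate 1 (-0.13), Control replicate 1 (-0.20) or Control replicate 2 (-0.20). Without PM2.5 replicate 1 the list had 3 lower, and DESeq2, library-size scaling, no filter and the fits on RPKM also gave 3.

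Among the extracellular partners, 5 were higher and 5 lower of 17 tested and the median was 0.06, and 2 of them, Tfpi and Timp3, had the largest falls in the 7 lists. Mmp9, a gelatinase, had 100 and 117 CPM in PM2.5 cells, against 29.7 and 30.5 CPM in Control cells, and rose by 1.85 (SE 0.084, edgeR adjusted p = 1.85e-07). Tfpi, the inhibitor of tissue factor coagulation that binds thrombospondin-1, had 4.12 and 3.42 CPM in PM2.5 cells and 35.7 and 33.5 CPM in Control cells and fell by 3.19 (SE 0.123, edgeR adjusted p = 8.09e-08). Timp3, an inhibitor of metalloproteinases, had 21.9 and 22.9 CPM in PM2.5 cells and 153 and 149 CPM in Control cells and fell by 2.75 (SE 0.067, edgeR adjusted p = 2.44e-09). Adamts1, a protease with type 1 repeats reported to cleave thrombospondin-1 and thrombospondin-2, had 57.4 and 49.8 CPM in PM2.5 cells and 191 and 152 CPM in Control cells and fell by 1.68 (SE 0.104, edgeR adjusted p = 1.92e-06). Named after their values were seen, Dcn (1.96), Adamts7 (0.70), Vegfa (0.59) and Col5a1 (0.17) were also higher. Likewise named, Hgf (-2.20) and Fn1 (-0.56) were also lower. Hgf rested on few counts, 4 and 6 in PM2.5 cells and 21 and 32 in Control cells. Its value ran from -2.58 to -0.26 over the 13 alternatives. The Col5a1 call ended without PM2.5 replicate 2 (0.11) and without Control replicate 1 (0.17) or 2 (0.17), the Vegfa call ended with DESeq2 (0.60), and DESeq2 gave 3 higher in the list.

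Among other proteins with type 1 repeats, 23 of 44 were tested, 5 were higher, 6 were lower and the median was -0.03. Adamts1 leads this list too. Adamts5, a protease of cartilage and vessel matrix, had 34.9 and 33.8 CPM in PM2.5 cells and 66.5 and 64.5 CPM in Control cells and fell by 0.93 (SE 0.069, edgeR adjusted p = 6.54e-06). Ccn5, a matricellular protein of the CCN family, had 29.1 and 26.1 CPM in PM2.5 cells and 55.0 and 56.8 CPM in Control cells and fell by 1.02 (SE 0.079, edgeR adjusted p = 8.75e-06). Adamtsl3, a relative of these proteases without the catalytic domain, fell by 0.76 (SE 0.072, edgeR adjusted p = 2.82e-05), with 35.8 and 35.2 CPM in PM2.5 cells against 57.7 and 62.4 CPM in Control cells. The higher genes, named after their values were seen, were Ccn3 (1.74), Adamts4 (1.54), Ccn2 (1.05), Adamts7 (0.70) and Sema5a (0.64). The Sema5a call ended with DESeq2 (0.68), no filter (0.62) and total gene reads (0.46). It also ended against chromosome neighbours (0.60) and in both fits on RPKM (0.56 and 0.18). Leaving out a library ended the call of Ccn3 for each of the 4 (from 1.46 to 2.21), of Ccn2 without PM2.5 replicate 1 (0.74) or Control replicate 2 (0.56), and of Sema5a without PM2.5 replicate 2 (0.45) or Control replicate 1 (0.40). Without Control replicate 2, and with DESeq2, 3 genes of the list were higher.

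Genes for the glycosylation of type 1 repeats and for folding in the endoplasmic reticulum moved little, with 4 higher and 0 lower of 11 tested and a median of 0.07. The count of lower genes was also 0 at an unadjusted edgeR p under 0.05 and with DESeq2. Creld2, a folding factor that endoplasmic reticulum stress induces, rose by 0.47 (SE 0.066, edgeR adjusted p = 0.000333), with 63.1 and 64.7 CPM in PM2.5 cells and 47.1 and 45.0 CPM in Control cells. Atf6, the stress sensor that thrombospondin-4 binds in mouse heart, rose by 0.27 (SE 0.058, edgeR adjusted p = 0.00455). Hsp90b1, a chaperone of the endoplasmic reticulum, rose by 0.21 (SE 0.057, edgeR adjusted p = 0.0135). Dpy19l3, which adds mannose to tryptophans of type 1 repeats, rose by 0.22 (SE 0.073, edgeR adjusted p = 0.0334). Its call ended with DESeq2 (0.22), no filter (0.20), total gene reads (0.17) and both fits on RPKM (0.24 and 0.21). Without PM2.5 replicate 2 only 1 gene, Creld2, was higher: Atf6 was at 0.23, Hsp90b1 at 0.24 and Dpy19l3 at 0.14. The Hsp90b1 call also ended without PM2.5 replicate 1 (0.17) and that of Dpy19l3 without Control replicate 2 (0.19), while against chromosome neighbours 7 genes were higher. Pofut2 and B3glct, which add fucose and then glucose to the repeats, were not called, at 0.02 and 0.03.

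Factors reported to regulate Thbs1 or Cd47 gave 4 higher and 5 lower of 16, all tested, with a median of -0.01. Jun, a subunit of AP-1, had 78.0 and 76.8 CPM in PM2.5 cells and 148 and 135 CPM in Control cells and fell by 0.87 (SE 0.064, edgeR adjusted p = 6.21e-06). Nfkb1, which encodes a subunit of NF-kappa-B, rose by 0.31 (SE 0.057, edgeR adjusted p = 0.00183), with 264 and 262 CPM in PM2.5 cells and 220.1 and 204 CPM in Control cells. Id1, a repressor of Thbs1 transcription in mouse, rose by 0.45 (SE 0.096, edgeR adjusted p = 0.0043), at 37.1 and 34.9 CPM in PM2.5 cells against 28.9 and 24.2 CPM in Control cells. Hif1a, the oxygen-regulated subunit of the hypoxia factor, fell by 0.30 (SE 0.061, edgeR adjusted p = 0.00328), a call that ended against its chromosome neighbours at -0.16. Named after their values were seen, Egr1 (2.47) and Wwtr1 (0.23) were the other genes higher. Likewise named, Myc (-0.31), Yap1 (-0.24) and Trp53 (-0.20) were the other genes lower. Egr1 rested on few counts, 23 and 27 in PM2.5 cells and 4 and 6 in Control cells. Its value ran from 0.25 to 2.64 over the 13 alternatives. Calls ended for Wwtr1 without PM2.5 replicate 2 (0.17) and against chromosome neighbours (0.09), for Myc without PM2.5 replicate 2 (-0.19) or Control replicate 1 (-0.21), and for Yap1 without PM2.5 replicate 1 (-0.22). The Trp53 call ended without PM2.5 replicate 1 (-0.21), PM2.5 replicate 2 (-0.21) or Control replicate 1 (-0.14). With any of these 3 libraries left out, 3 genes of the list were lower.

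**Figure D4:**
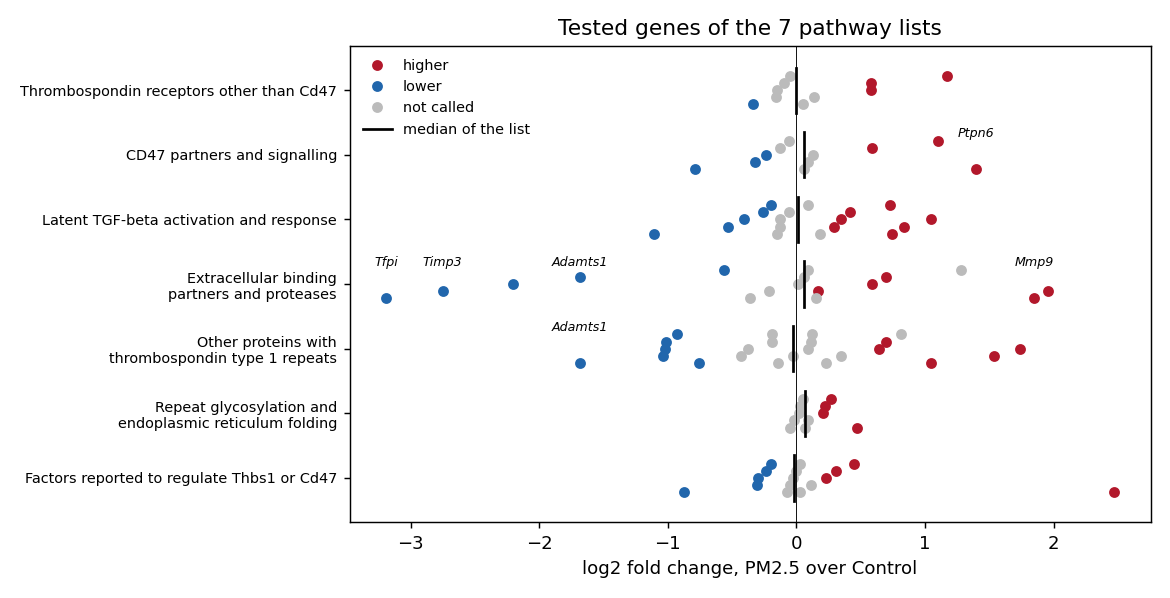
Log2 fold change, PM2.5 over Control, of each tested gene in the 7 lists, with genes called higher in red, called lower in blue, not called in grey, and the list median as a black bar. The medians lie between -0.03 and 0.07, and the farthest genes are Tfpi at -3.19 and Timp3 at -2.75.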

How the data were processed

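Bulk polyA RNA was sequenced in 2 PM2.5 and 2 Control libraries, from 750 ng of total RNA each with a stranded ligation kit, per the labels' protocols. The authors deposited unnormalized raw counts for each gene and, from the same libraries, RPKM values. The total gene reads are a second deposited count that the headers do not define. Positions follow GRCm39, per the submitters' processing notes. The aligner, counter, annotation and use of strand in counting are not given in the sources used.

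Raw counts were tested with edgeR 4.0.16 in R 4.3.3 (filterByExpr, TMM factors of 1.02 and 1.024 in PM2.5 and 0.973 and 0.984 in Control, unpaired quasi-likelihood F test, Benjamini-Hochberg adjustment over 12478 genes, threshold 0.05). The fit was also run on simulated counts with the same dispersion for all genes, which does not cover the unequal spread of these replicates. Dividing the size of the log2 fold change by the square root of F gave its SE. CPM values are TMM scaled. Differences between replicates exceeded sampling noise, with a mean chi-square per gene of 3.77 in PM2.5 and 7.29 in Control, so no library was treated as a duplicate of another. The 2 replicate numbers do not show that samples were paired.

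The 6 genes, the lists and the tests were chosen with earlier results of these data known. Named are the 6 genes, from each list up to 4 called genes with the smallest p among those of at least 1 CPM on average, Sirpa, Cd36, the 3 most like genes per member of at least 10 CPM, and the nearest tested gene on each side. The most like genes leave out predicted, clone, accession-like and mitochondrial names. Any other gene was named after its values were seen, and 1 gene of the lists is not reported here. The 13 alternatives were median-ratio factors, library size only, no filter, DESeq2 1.42.0, the replicate number as a block, leaving out each library, limma-trend (limma 3.58.1) on log2(RPKM + 0.1) and log2(RPKM + 1), total gene reads, and a positional offset that sets each gene against the median of its 50 nearest tested genes on each side. Promoter sequences are from RefSeq on GRCm38.p6.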

Additional observations from a re-analysis of the deposited data

How the results depend on the processing

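In the 13 alternatives Thbs1, Thbs2 and Thbs3 kept their direction, and that of Cd47, at -0.03, varied. Thbs2 was no longer past the threshold with library size only, no filter, DESeq2, the fits on RPKM, the positional offset or total gene reads. Among the alternatives on all 4 libraries, Thbs2 stayed past the threshold only with median-ratio factors and the replicate block. Thbs3 was no longer past the threshold with DESeq2 (0.44) or the positional offset (0.35). Cd47 passed it only with that offset, which takes the neighbour median as known without error. The threshold statements on these genes support nothing, as the genes were chosen with this contrast in view. For fits without 1 library the sizes alone are given, so the calls of these genes are not shown to hold there. Thbs1 ranged from 0.77 to 1.22 on the log2 scale when 1 library was left out, Thbs2 from -0.81 to -0.61, Thbs3 from 0.31 to 0.58 and Cd47 from -0.09 to 0.02. Thbs2 was -0.51 on log2(RPKM + 0.1) and -0.16 on log2(RPKM + 1). Cd47 was 0.03 with library size only and 0.23 with the positional offset. Over all genes, DESeq2 called 1581 higher, and leaving out 1 library gave 1492 to 2266 higher and 1619 to 2575 lower, both lowest without PM2.5 replicate 2. The replicate block called 2820 higher and 2973 lower, and the deviations of same-numbered libraries correlated at 0.12 over 12443 genes, which with 2 pairs does not establish pairing; it gave 3 lower receptors, and Mtx3 passed the threshold under it at 0.21 and with library size only at 0.28. The positional offset gave 0 lower receptors, 5 lower CD47 partners and 7 higher folding genes, and total gene reads gave 5 higher receptors. For the TGF-beta list, library size only, no filter, DESeq2, log2(RPKM + 0.1) and log2(RPKM + 1) each gave 3 lower. DESeq2 gave 3 higher among extracellular partners and 3 higher among other type 1 repeat proteins, and log2(RPKM + 1) gave 3 lower regulators. With 1 library left out, the counts ran from 2 to 3 higher and 1 to 3 lower receptors, 3 to 4 higher and 2 to 4 lower CD47 partners, 6 to 8 higher and 3 to 4 lower TGF-beta genes, 4 to 5 higher and 5 to 5 lower extracellular partners, 3 to 5 higher and 5 to 7 lower type 1 repeat proteins, 1 to 4 higher and 0 to 0 lower folding genes, and 3 to 4 higher and 3 to 5 lower regulators. The cause of these shifts was not tested, beyond the smaller number of samples when a library is left out. Leaving out a library makes the lone sample of its group borrow the spread of the other. Zfp950 was no longer called under the positional offset (0.29). Of 1255 values under alternatives, 1138 kept their direction and side of the threshold or stayed within their spread or 1.5-fold, and no called value changed sign. Values near 0, such as those of Cd47, Crtc1 and Eif1b, did. Depth limits Thbs2, Thbs4 and Comp, which rest on at most 75 counts in any library.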
